A study of Mus musculus with 9 samples.

Results

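The 10 genes described here are members of the matrix metalloproteinase family (Mmp8, Mmp9, Mmp12, Mmp13, Mmp14, Mmp19 and Mmp27) and of the tissue inhibitors of metalloproteinases (Timp1, Timp2 and Timp3). They were found by the gene name that the array gives to its probes, which picked 13 of 55681 probes. Mmp12, Mmp27 and Timp2 had 2 probes each and the other members 1. Of the 10 members, 9 passed the filter on dim probes and were tested among 18592 genes, and Mmp13 did not.

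Peritoneal macrophages of male mice were profiled for RNA on 9 Agilent 1-colour arrays, with 3 arrays in each of 3 groups. Group M was the migratory macrophages taken from the upper chamber of a Transwell, a well divided by a porous membrane, after co-culture with CT-26, a colon carcinoma line of mouse origin. How long this co-culture lasted was not given in the sources used here. Group T was macrophages that shared the lower chamber with CT-26 cells over 24 h. Group Ctrl was macrophages kept alone in regular medium for 24 h. All groups had been sorted by flow cytometry as CD45+ F4/80+ cells. The groups follow the sample titles, whereas the cell type label of the T samples reads "migratory macrophages". Migration and co-culture come together in M and are both absent from Ctrl, and M and T differ in chamber. Whether replicate arrays stem from different animals or culture dishes is not in the labels. The p-values therefore reflect the spread among these arrays, which could be technical.

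Of all probes, between 60.5% and 66.6% were well above background on the M arrays, between 66.2% and 72.3% on the T arrays and between 69.97% and 78.7% on the Ctrl arrays. The M and Ctrl arrays lay on 1 slide and shared a scan date, and the T arrays lay on the other slide with another scan date. Slide, scan and group therefore cannot be told apart where T is compared. All 8 markers of the sorted macrophages were well above background on every array, though the levels of some differed between the groups. Marker levels here are on the log2 scale explained below. The mean level of Adgre1, the gene of a sort marker, was 3.37 in M, 0.61 in T and 0.51 in Ctrl. That of Lyz2 was 5.44, 4.50 and 3.92, and that of Mertk was -5.02, -2.77 and -5.51. At the threshold given below, 3 of the 8 markers were higher and none lower in M minus Ctrl. In T minus Ctrl 2 were higher and none lower, and in M minus T 3 were higher and 1 lower. Apart from a constant, and to within 0.001 log2 units for 99.3% of probes, the authors' deposited value table held the M1 and M2 arrays under each other's names and a T2 column that matched no scanner file. The values below come from the scanner files. In bulk samples such as these, fewer cells of a type and less RNA per cell cannot be told apart.

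Matrix metalloproteinases are zinc-dependent proteases that cut collagens, elastin and other proteins of the extracellular matrix, as well as cytokines and other proteases. Most are secreted as inactive proenzymes that other proteases activate, and some are anchored in the plasma membrane. The tissue inhibitors bind the active site of these enzymes and block it. Macrophages are a known source of several family members in inflamed tissue and in tumours, where the enzymes help cells pass through matrix.

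On mouse build mm9, as the array design gives it, the Mmp9 probe lies at chr2:164780620-164780679, the Mmp14 probe at chr14:55058775-55058834, the Mmp19 probe at chr10:128236221-128236280, the Timp1 probe at chrX:20451802-20451861 and the Timp3 probe at chr10:85811696-85811755. The main Timp2 probe spans chr11:118171964-118178741, which is 6778 bases of genome for a probe of 60 bases. Probes of Mmp13 (chr9:7282762-7282821), Mmp12 (chr9:7352935-7352994 and chr9:7360373-7360432), Mmp8 (chr9:7568238-7568297) and Mmp27 (chr9:7573412-7573471 and chr9:7581328-7581387) lie close together on chromosome 9. In the RefSeq gene order this cluster runs Mmp13, Mmp12, Mmp1b, Mmp3, Mmp1a, Mmp10, Mmp8, Mmp27, Mmp20 and Mmp7. Of these 10 neighbours, 3 (Mmp12, Mmp8 and Mmp27) passed the filter, and Mmp10 and Mmp20 were well above background on no array. No annotation of build mm9 was at hand, so exons and untranslated regions are not assigned here.

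The probes of Mmp12, Mmp14 and Timp2 are shown because the results on an elastase, a membrane-bound protease and its inhibitor rest on these sequences of 60 bases each.
Mmp12: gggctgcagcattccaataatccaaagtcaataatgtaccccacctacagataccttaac
Mmp14: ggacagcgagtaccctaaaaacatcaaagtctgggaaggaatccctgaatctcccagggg
Timp2: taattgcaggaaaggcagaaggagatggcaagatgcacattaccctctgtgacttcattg

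Several metalloproteinase promoters are known to carry a site for AP-1, the dimer of Fos and Jun proteins, and a TATA box. RefSeq promoters of build GRCm38.p6, each of 250 bases before to 50 bases after the gene start, were listed for 8 of the 10 members. On either strand, the AP-1 letters TGANTCA occurred in a promoter of 2 members, Mmp12 and Mmp13, and in 7.81% of 32851 mouse promoters of the same length. The letters TATAAA occurred in a promoter of 3 members (Mmp8, Mmp12 and Mmp13), against 13.6% of all promoters, and the 2 motifs did not overlap. The TATAAA of Mmp12 begins 4 bases after the gene start, and that of Mmp8 lies on the minus strand, 3 bases before the start. A pair of promoters is shown, in 120 bases up to the gene start, because they hold an AP-1 match 44 and 35 bases before that start. Capitals mark these matches and, in Mmp13, the TATAAA 16 bases before the start. A match describes these letters and no binding was measured.
Mmp12, the second of its starts, chr9:7347254-7347373, plus strand: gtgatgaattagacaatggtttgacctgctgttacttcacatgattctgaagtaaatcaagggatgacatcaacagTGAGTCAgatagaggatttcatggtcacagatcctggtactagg
Mmp13, chr9:7272394-7272513, plus strand: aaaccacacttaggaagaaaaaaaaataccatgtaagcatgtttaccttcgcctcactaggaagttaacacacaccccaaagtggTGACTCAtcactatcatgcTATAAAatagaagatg

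Levels are given as log2 of the processed signal over the array's 75th percentile, so that a level of 0 equals that percentile. Differences are in log2 units with the moderated SE of limma, and adjusted p-values are limma's with Benjamini-Hochberg adjustment over all tested genes and a threshold of 0.05. Levels of different probes are not compared, since probes differ in brightness. The background correction called normexp below was run with an added offset of 50, which by itself narrows the differences of dim probes. Some genes passed the filter only through the group where they are high, as Mmp12 did through T and Mmp14 through Ctrl. The filter favours a difference in such genes, so their calls are given as a description.

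In migratory macrophages (M minus Ctrl), 5 of the 9 tested members were higher (Mmp8, Mmp9, Mmp12, Mmp19 and Timp2) and 1 (Timp1) was lower, where 12.1% of all tested genes were called higher and 11.1% lower. Mmp12 is in this count although its probe was well above background on no M or Ctrl array, and without it 4 were higher. In lower-chamber co-culture (T minus Ctrl), 3 were higher (Mmp9, Mmp12 and Mmp19) and 5 were lower (Mmp8, Mmp14, Mmp27, Timp2 and Timp3), against 17.5% and 27.4% of all tested genes. Between the co-cultured groups (M minus T), 6 were higher (Mmp8, Mmp9, Mmp14, Mmp19, Timp2 and Timp3) and 2 were lower (Mmp12 and Timp1), against 14.6% and 10.8%. Mmp12 and Mmp14 are in the counts of T minus Ctrl and M minus T although each passed the filter through a single group, where it is high. The medians and the counts of separated arrays below include them too. The median difference of the members was 1.80 in M minus Ctrl, -1.02 in T minus Ctrl and 1.19 in M minus T, beside -0.10, -0.14 and 0.11 over all tested genes. Arrays of the 2 groups were fully separated for 8 of the 9 members in M minus Ctrl, 8 in T minus Ctrl and 9 in M minus T, against 36.2%, 53.6% and 48.2% of all tested genes. Each pair of comparisons shares the arrays of 1 group.

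**Figure D1:**
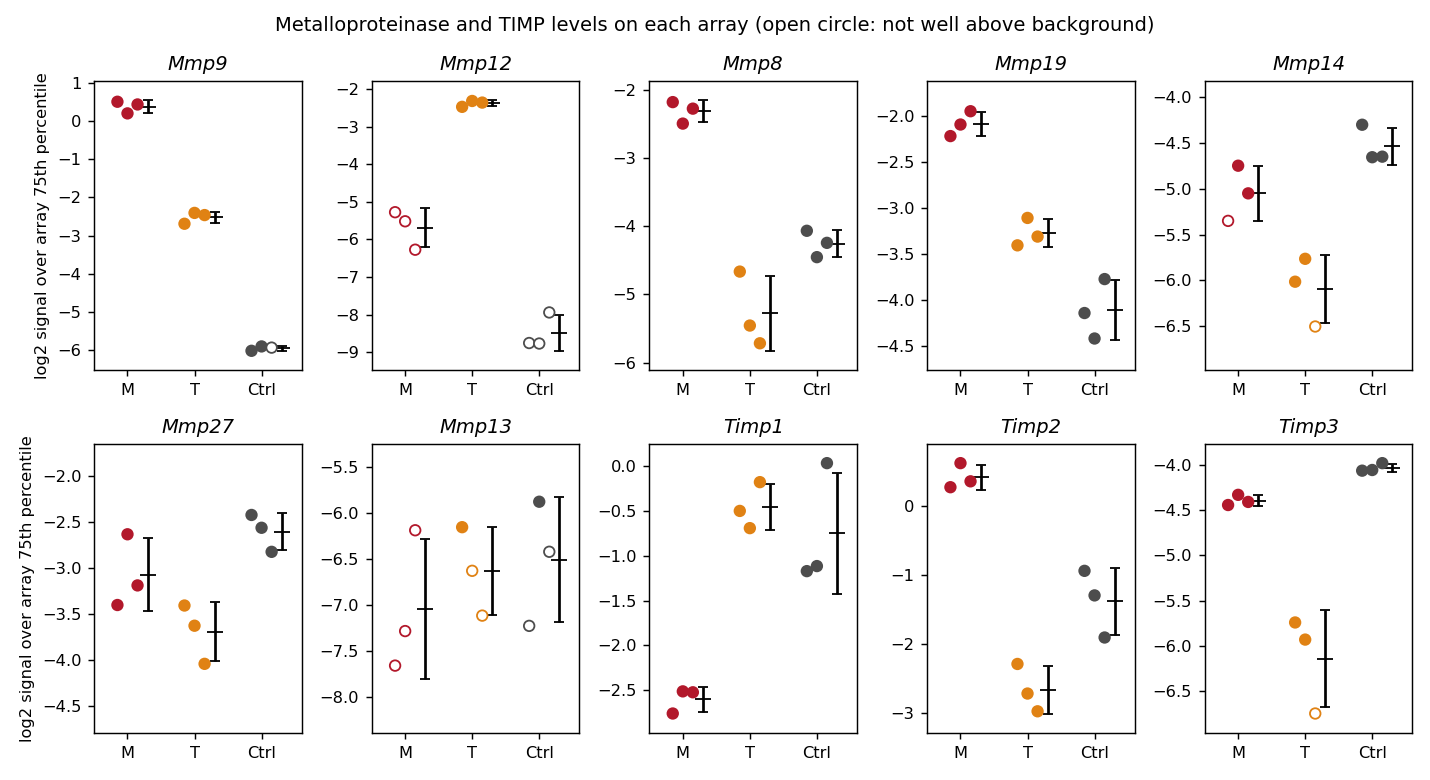
Level of each member on every array, as log2 of the signal over the array's 75th percentile, with 1 panel per gene, its own vertical axis and the groups M, T and Ctrl from left to right. Points are arrays, filled where the probe was well above background, and bars give the group mean ± SD (n = 3); Mmp9 separates all 3 groups, while Mmp13 overlaps throughout.

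Mmp9 encodes gelatinase B, which cuts denatured collagen and the type IV collagen of basement membranes. Its level was 0.50, 0.20 and 0.43 on M1, M2 and M3, -2.69, -2.40 and -2.46 on T1, T2 and T3, and -6.01, -5.90 and -5.93 on Ctrl1, Ctrl2 and Ctrl3. The 3 groups did not overlap, with M highest and Ctrl lowest. Mmp9 rose 80.1-fold in M over Ctrl (6.32 ± 0.16, adjusted p = 2.7e-08) and 10.8-fold in T over Ctrl (3.43 ± 0.16, adjusted p = 1.1e-06). Its level was 7.44-fold higher in M than in T (2.90 ± 0.16, adjusted p = 2.4e-06). The array carries 10 spots of this probe, of which 8 to 10 were kept per array, and their processed signals varied with a coefficient of variation of 2.05% to 19.0%. The mean processed signal was 5267, 2843 and 4110 on the M arrays, 333, 688 and 605 on the T arrays, and 34.2, 47.0 and 44.1 on the Ctrl arrays. The probe was well above background on 2 of the 3 Ctrl arrays, and background correction by normexp gave smaller differences to Ctrl, of 4.93 for M and 2.20 for T.

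Mmp12 encodes the macrophage elastase, which cuts elastin. Its level was -5.28, -5.52 and -6.27 on M1 to M3, -2.47, -2.32 and -2.36 on T1 to T3, against -8.75, -8.77 and -7.94 on Ctrl1 to Ctrl3. Only the T arrays were well above background, so each of its folds is a bound: the bright group's mean is set against the dim group's mean of the higher of the array's lowest detected signal and the probe's own. By these bounds the T level of Mmp12 exceeded that of Ctrl at least 16.5-fold, and Mmp12 was at least 8.69-fold lower in M than in T. The bounds themselves were not tested. They rest on the lowest detected signal of any probe, and Mmp9 on Ctrl3 was not well above background at -5.93. The fitted differences were 6.10 ± 0.29 for T minus Ctrl (adjusted p = 1.1e-06) and -3.30 ± 0.29 for M minus T (adjusted p = 3.6e-05). The M arrays all lay above the Ctrl arrays (fitted difference 2.80 ± 0.29, adjusted p = 0.00011), but in neither group was the probe well above background, and no fold is given. The order of the groups therefore differed from that of Mmp9, with T highest. The fitted difference of T to Ctrl was 6.10, and it was 2.78 with normexp. That of M to Ctrl was 0.67 with normexp (adjusted p = 0.016).

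No array had the other Mmp12 probe well above background. Its processed signal was 22.3, 13.3 and 21.3 on the M arrays, 5.5, 9.6 and 11.3 on the T arrays, and 5.1, 7.0 and 11.4 on the Ctrl arrays. It thus did not show the high T values of the main probe, whose signal was 386, 729 and 647 on T1 to T3. Though at background, its level was 1.07 higher in M than in Ctrl and 1.10 higher in M than in T. The limma adjusted p-values over all probes were 0.023 and 0.016. How far such a raised reading on the M arrays enters the main probe's M minus Ctrl difference was not tested. The result for Mmp12 rests on the main probe alone.

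**Figure D2:**
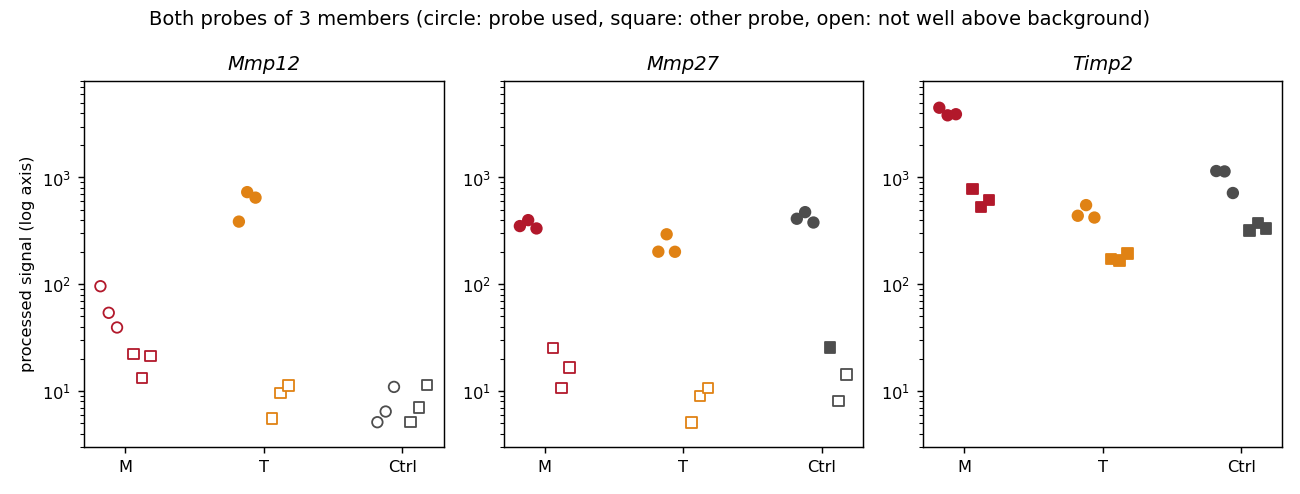
Processed signal on a log axis of both probes of Mmp12, Mmp27 and Timp2 on every array, with the groups M, T and Ctrl from left to right. Circles are the probe used and squares the other probe, open where not well above background; both Timp2 probes put M highest and T lowest, whereas only the main Mmp12 probe is bright in T.

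Mmp8 encodes the collagenase first known from neutrophils, which cuts fibrillar collagens. Its level was -2.18, -2.50 and -2.28 on M1 to M3, -4.67, -5.46 and -5.72 on T1 to T3, against -4.07, -4.45 and -4.25 on Ctrl1 to Ctrl3. The groups did not overlap, with M highest and T lowest. Mmp8 rose 3.82-fold in M over Ctrl (1.94 ± 0.26, adjusted p = 0.00066) and was 7.78-fold higher in M than in T (2.96 ± 0.26, adjusted p = 3.4e-05). In T it fell by 1.02 ± 0.26 relative to Ctrl (adjusted p = 0.011), and this call ended with normexp (adjusted p = 0.097), quantile normalization (0.13), scaling to the array median (0.083) and the deposited value table (-0.15, adjusted p = 0.865). With that table the calls of Mmp8 in M minus Ctrl and M minus T also ended (adjusted p = 0.055 and 0.054).

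Because Mmp8 is also a granulocyte gene, markers of granulocytes are given beside it. Their summed level, in units of the array's 75th percentile, was 19.8 to 27.5 in M, 18.4 to 23.7 in T and 15.7 to 25.7 in Ctrl, so the groups overlapped. Most of this sum is Csf3r, the receptor of a granulocyte growth factor, at a level of 4.28 in M, 4.24 in T and 4.25 in Ctrl. Without Csf3r the sum was 2.84 to 2.99 in M, 1.15 to 1.36 in T and 0.85 to 1.19 in Ctrl. M thus lay above both other groups, but most of its remaining sum was the single gene S100a8. Every marker except Csf3r, S100a8 and S100a9 had a lower mean level in M than in Ctrl. Of the 12 markers 8 to 10 were well above background per array. The defining neutrophil genes Ly6g and Ltf were well above background on 1 T array and on no M or Ctrl array, and Retnlg on 1 Ctrl array alone. S100a8, a calprotectin subunit, was the marker with the largest difference, at 1.14 in M, -0.77 in T and -3.83 in Ctrl. Of the 9 markers tested, 2 were higher and none lower in M minus Ctrl (S100a8 and S100a9; median -0.03), 1 was higher and 3 lower in T minus Ctrl (median -0.08), and 2 were higher and none lower in M minus T (S100a8 and Ngp; median 0.81). The part of granulocyte RNA in the Mmp8 and Mmp9 results was not tested.

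Mmp13 encodes another collagenase, and it is the member that failed the filter. Its level was -7.66, -7.29 and -6.19 on M1 to M3, -6.15, -6.63 and -7.12 on T1 to T3, against -7.23, -5.88 and -6.42 on Ctrl1 to Ctrl3. The groups overlapped in every comparison, and the probe was well above background on 2 of 9 arrays, T1 and Ctrl2. A fit without the filter gave -0.54 for M minus Ctrl (adjusted p = 0.39), -0.12 for T minus Ctrl (0.86) and -0.41 for M minus T (0.54). A difference in Mmp13 was thus not detectable at this signal.

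Mmp19 encodes a secreted protease of basement membrane proteins. Its level was -2.22, -2.09 and -1.94 on M1 to M3, -3.41, -3.11 and -3.31 on T1 to T3, against -4.14, -4.42 and -3.77 on Ctrl1 to Ctrl3. The groups did not overlap and stood in the same order as for Mmp9, over a narrower range. Mmp19 rose 4.08-fold in M (2.03 ± 0.20, adjusted p = 6.8e-05) and 1.79-fold in T over Ctrl (0.84 ± 0.20, adjusted p = 0.0079). It was 2.28-fold higher in M than in T (1.19 ± 0.20, adjusted p = 0.0019).

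Mmp14 encodes a membrane-anchored collagenase, which activates the proenzyme of Mmp2 at the cell surface. Its level was -5.35, -4.75 and -5.05 on M1 to M3, -6.01, -5.76 and -6.50 on T1 to T3, against -4.30, -4.66 and -4.65 on Ctrl1 to Ctrl3. Its M values lay between those of T and Ctrl without overlap. Mmp14 fell by 1.56 ± 0.24 in T relative to Ctrl (adjusted p = 0.00092) and was 2.06-fold higher in M than in T (1.04 ± 0.24, adjusted p = 0.010). The difference of M to T was 0.50 with normexp (adjusted p = 0.067), and normexp also gave a smaller difference of T to Ctrl, of -0.76. The difference of M to Ctrl was -0.51 ± 0.24 (adjusted p = 0.13). The probe was dim, well above background on 2 of 3 arrays in M and in T. Its signal of 91.0 was not well above background on M1, while 33.2 was on T1. The markers Dcn, Lum, Pdgfra, Upk3b, Wt1 and Cpa3, well above background on no array, had their highest mean in M. Dcn, for example, stood at -6.91 in M, -8.37 in T and -8.03 in Ctrl. How far such raised readings of dim probes on the M arrays enter the Mmp14 differences was not tested.

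Mmp27 encodes a less studied member whose human protein stays in the endoplasmic reticulum. Its level was -3.40, -2.63 and -3.19 on M1 to M3, -3.41, -3.63 and -4.05 on T1 to T3, against -2.42, -2.56 and -2.83 on Ctrl1 to Ctrl3. The M arrays overlapped those of Ctrl and lay just above those of T. Mmp27 fell by 1.09 ± 0.25 in T relative to Ctrl (adjusted p = 0.0062). Neither M minus Ctrl (-0.47 ± 0.25, adjusted p = 0.17) nor M minus T (0.62 ± 0.25, adjusted p = 0.092) passed the threshold. The M minus T difference passed with normexp (adjusted p = 0.045) and with array quality weights (0.023), and with these weights M minus Ctrl passed too (0.038). The other Mmp27 probe was well above background on 1 Ctrl array only.

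**Figure D3:**
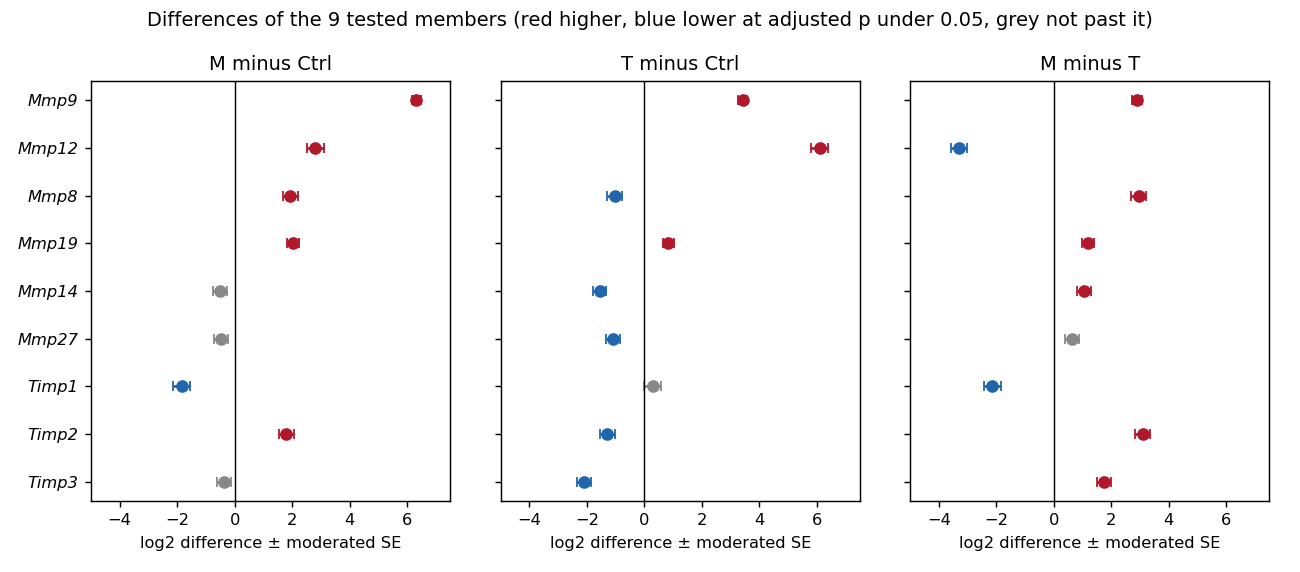
Log2 difference ± moderated SE of the 9 tested members in M minus Ctrl, T minus Ctrl and M minus T, from left to right. Red and blue points are higher and lower at an adjusted p under 0.05 and grey points did not pass; Mmp8 and Timp2 are higher in M and lower in T against Ctrl.

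The 3 inhibitors each had a pattern of their own. Timp1 encodes a soluble inhibitor that binds Mmp9, also in its proenzyme form. Its level was -2.76, -2.51 and -2.52 on M1 to M3, -0.50, -0.69 and -0.18 on T1 to T3, against -1.17, -1.12 and 0.03 on Ctrl1 to Ctrl3. All M arrays lay below all T and Ctrl arrays, and T and Ctrl overlapped because of Ctrl3. Timp1 fell by 1.85 ± 0.30 in M relative to Ctrl (adjusted p = 0.0025) and by 2.14 ± 0.30 relative to T (adjusted p = 0.00074). The difference of T to Ctrl was 0.29 ± 0.30 (adjusted p = 0.46), and it passed without Ctrl3 (0.69, adjusted p = 0.013) and with array quality weights (0.61, adjusted p = 0.017).

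Timp2 encodes the inhibitor that also links Mmp14 to the proenzyme of Mmp2 during its activation. Its level by the main probe was 0.28, 0.63 and 0.36 on M1 to M3, -2.29, -2.72 and -2.98 on T1 to T3, against -0.94, -1.30 and -1.91 on Ctrl1 to Ctrl3. The groups did not overlap, with M highest and T lowest, as for Mmp8. Timp2 rose 3.49-fold in M over Ctrl (1.80 ± 0.27, adjusted p = 0.0013) and fell by 1.28 ± 0.27 in T relative to Ctrl (adjusted p = 0.0045). It was 8.495-fold higher in M than in T (3.09 ± 0.27, adjusted p = 3.2e-05).

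The other Timp2 probe put the groups in the same order without overlap. Its level was -2.25, -2.22 and -2.31 in M, -3.64, -4.44 and -4.10 in T, and -2.78, -2.90 and -3.01 in Ctrl. By this probe Timp2 fell by 1.16 ± 0.21 in T relative to Ctrl (adjusted p = 0.0026 over all probes that passed) and was 1.80 ± 0.21 higher in M than in T. The difference of M to Ctrl was 0.64 ± 0.21 and did not pass (adjusted p = 0.060), so the 2 probes disagree on that call. The mean of both probes gave 1.22 for M minus Ctrl (adjusted p = 0.0040).

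Timp3 encodes the inhibitor that is held in the extracellular matrix and also blocks several ADAM proteases. Its level was -4.44, -4.33 and -4.41 on M1 to M3, -5.74, -5.93 and -6.74 on T1 to T3, against -4.06, -4.06 and -3.98 on Ctrl1 to Ctrl3. The groups did not overlap, and M and Ctrl lay close together. Timp3 fell by 2.10 ± 0.24 in T relative to Ctrl (adjusted p = 0.00018) and was 3.35-fold higher in M than in T (1.74 ± 0.24, adjusted p = 0.00063). The difference of M to Ctrl was -0.36 ± 0.24 (adjusted p = 0.28), and with normexp the fall in T was 1.07 and the difference of M to T 0.83.

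Markers of other cells that could carry these genes are given beside them, and their part was not tested. Of 12 carcinoma epithelium markers 7 to 9 were well above background on the M arrays, 8 to 10 on the T arrays and 9 to 12 on the Ctrl arrays. Their summed level was 2.04 to 2.71 in M, 2.44 to 2.83 in T and 2.26 to 4.10 in Ctrl, and Krt19, a keratin gene, was higher in T than in Ctrl (3.63 ± 0.27, adjusted p = 1.1e-05). Of the 9 tested, none passed in M minus Ctrl. In T minus Ctrl 2 were higher (Krt19 and Elf3) and 4 lower (Ocln, Epcam, Cldn4 and Krt7), with a median of -0.56, and in M minus T 2 were higher and 2 lower. Of 10 fibroblast and mesothelium markers 3 to 5 were well above background per array, with summed levels of 0.17 to 0.26 in M, 0.20 to 0.21 in T and 0.19 to 0.28 in Ctrl. Their defining genes Dcn, Lum, Pdgfra, Upk3b and Wt1 were well above background on no array. Pdgfrb, a receptor of pericytes and fibroblasts, had a level of -7.81 in M, -4.93 in T and -8.26 in Ctrl and, like the main Mmp12 probe, was well above background on every T array and on no M or Ctrl array. Of the 5 tested, none passed in M minus Ctrl, 1 was higher (Pdgfrb) and 1 lower (Col1a2) in T minus Ctrl, and 1 (Pdgfrb) was lower in M minus T. The summed level of 5 mast cell markers was 0.13 to 0.17 in M, 0.34 to 0.37 in T and 0.19 to 0.26 in Ctrl, and Cpa3 was well above background on no array. Tpsb2, a tryptase gene, carried the T value, and without it the sum was 0.075 to 0.086 in M, 0.044 to 0.050 in T and 0.094 to 0.13 in Ctrl. Tpsb2 was 1.54 higher in T than in Ctrl (adjusted p = 0.00086), and 0.42 with the mean of its probes (adjusted p = 0.087).

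Over the 9 arrays, the genes most like a member were found by the root mean square difference of levels centred on their mean, among 18499 genes other than the members. For Mmp9 these were Gm14548 (0.28), Pira7 (0.29) and Ccl2 (0.32), where Mmp9 itself had an SD of 2.74 over the arrays. For Mmp12 they were 1700007K13Rik (0.43), Gstt4 (0.49) and Csf1 (0.50), with an SD of 2.67. For Timp2 they were St8sia5 (0.19), 9430069I07Rik (0.23) and Chst7 (0.29), with an SD of 1.38. For Mmp14 they were 4932430A15Rik (0.11), Olfr195 (0.12) and Tekt3 (0.13), with an SD of 0.73.

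In M minus Ctrl 12.1% of all tested genes were called higher and 11.1% lower. The shares were 17.5% and 27.4% in T minus Ctrl, and 14.6% and 10.8% in M minus T. They are the background for the marker counts above and the list counts below. Among 17 other genes of the family, 7 were tested, and 2 were higher and 1 lower in M minus Ctrl. Mmp11, a stromelysin, rose by 2.33 ± 0.19 in M and by 1.66 ± 0.19 in T over Ctrl, and was 0.66 ± 0.19 higher in M than in T. Mmp2, the gelatinase that Mmp14 and Timp2 activate, had a level of -3.28 ± 0.32 in M, -4.08 ± 0.24 in T and -4.53 ± 0.39 in Ctrl (SD, n = 3 each), and it rose by 1.25 ± 0.25 in M over Ctrl (adjusted p = 0.0070) and was 0.80 ± 0.25 higher in M than in T. Mmp17 fell by 0.59 ± 0.19 in M relative to Ctrl and by 0.66 ± 0.19 relative to T. In T minus Ctrl, Mmp11 was higher and Mmp28, Mmp24 and Mmp23 were lower, by 1.23, 0.64 and 0.60. In M minus T, Mmp24 was also higher (1.01 ± 0.19). The median of the 7 was -0.45 in M minus Ctrl, -0.51 in T minus Ctrl and 0.49 in M minus T. The calls of Mmp17 in M, Mmp23 in T, and Mmp2 and Mmp11 in M minus T ended with normexp (adjusted p = 0.33, 0.15, 0.089 and 0.070). In a fit of M and Ctrl alone, 2 were higher and none lower.

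Of 21 genes whose products activate, dock, bind, clear or restrain metalloproteinases, 17 were tested. In M minus Ctrl 6 were higher and none lower (median 0.20), in T minus Ctrl 9 were higher and 4 lower (0.56), and in M minus T 3 were higher and 3 lower (0.35). Ctsk encodes cathepsin K, which cuts collagen; its M level exceeded that of Ctrl at least 739.7-fold and was 8.87 ± 0.27 higher in M than in T. Lcn2, which binds Mmp9 and guards it from degradation, rose by 3.41 ± 0.15 in M and by 2.95 ± 0.15 in T over Ctrl. Plat, a plasminogen activator, rose by 3.88 ± 0.17 in M and by 2.80 ± 0.17 in T over Ctrl, and was 1.08 ± 0.17 higher in M than in T. The other plasminogen activator gene, Plau, rose by 1.69 ± 0.21 in T over Ctrl, and its M minus T difference was -1.04 ± 0.21. Elane, a neutrophil elastase gene that is also among the granulocyte markers, fell by 2.56 ± 0.55 in T relative to Ctrl, with an SD of 1.40 in Ctrl. In a fit of M and Ctrl alone, 4 partners were higher and none lower.

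**Figure D4:**
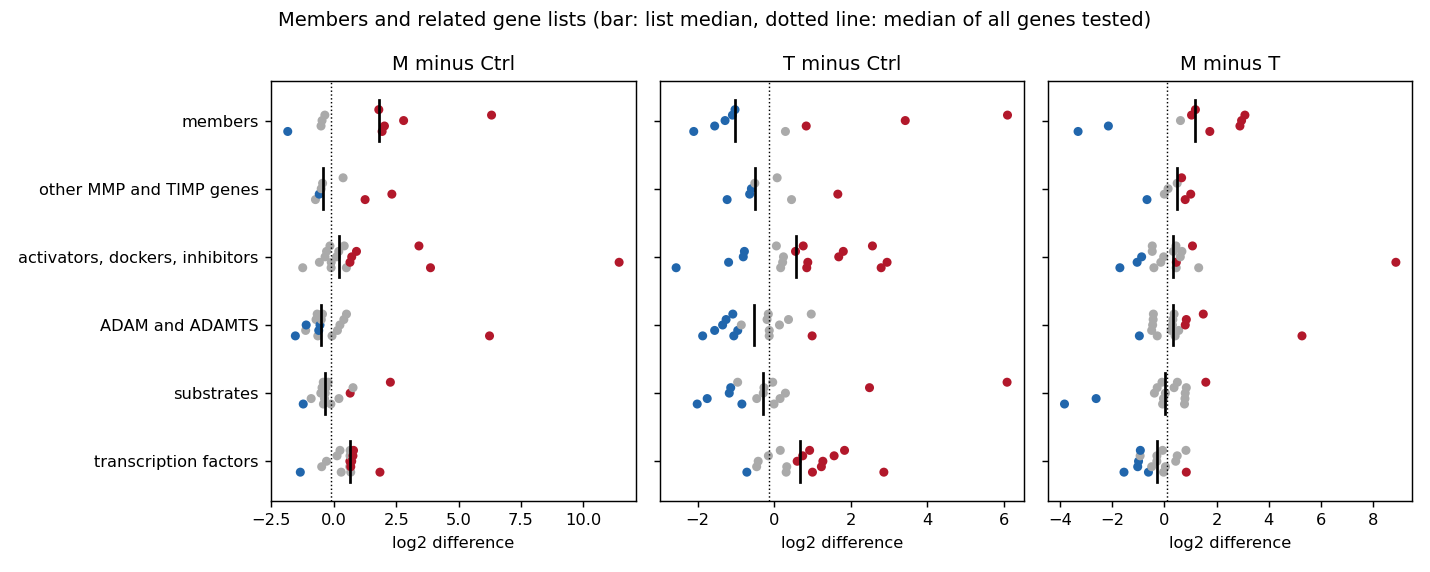
Log2 differences of the 9 tested members and of the tested genes of 5 related lists in M minus Ctrl, T minus Ctrl and M minus T, from left to right. Each point is a gene, red where higher and blue where lower at an adjusted p under 0.05 and grey otherwise, the bar is the list's median, and the dotted line is the median of all tested genes.

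Of 18 genes of the related ADAM and ADAMTS proteases, 16 were tested, with 1 higher and 4 lower in M minus Ctrl. In T minus Ctrl 1 was higher and 7 lower, against 17.5% and 27.4% of all tested genes. In M minus T 4 were higher and 1 lower. The medians were -0.53, -0.52 and 0.32. Adamts1 was at least 19.3-fold higher in M than in Ctrl and 5.27 ± 0.43 higher in M than in T. Adam10 and Adam17, membrane sheddases that Timp3 can block, fell by 1.11 ± 0.19 and 0.61 ± 0.18 in M relative to Ctrl. In a fit of M and Ctrl alone, 1 was higher (Adamts1) and 1 lower (Adam10).

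Of 18 matrix substrate genes, 15 were tested, and 2 were higher and 1 lower in M minus Ctrl. In T minus Ctrl 2 were higher and 5 lower, against 17.5% and 27.4% of all tested genes. In M minus T 1 was higher and 2 lower. The medians of the 15 were -0.34, -0.28 and 0.04, and the median of T minus Ctrl was 0.14 with quantile normalization. Col2a1 was at least 18.8-fold higher in T than in Ctrl and Col4a1 at least 3.81-fold, while Col6a1 was at least 2.53-fold and Vcan at least 2.79-fold lower in T. Like the main Mmp12 probe, Col2a1 and Col4a1 were well above background on every T array and on no Ctrl array. In a fit of M and Ctrl alone, 1 substrate gene was higher and none lower.

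Of 16 transcription factor genes known to act at metalloproteinase promoters, all were tested. In M minus Ctrl 6 were higher and 1 lower (median 0.65), in T minus Ctrl 9 were higher and 1 lower (0.67), and in M minus T 1 was higher and 5 lower (-0.29). Fosl1, a partner of Jun in AP-1, rose by 1.85 ± 0.19 in M and by 2.87 ± 0.19 in T over Ctrl and its M minus T difference was -1.02 ± 0.19. Etv4, an ETS factor, rose by 1.84 ± 0.19 in T over Ctrl and its M minus T difference was -1.54 ± 0.19. In a fit of M and Ctrl alone, 1 factor (Fosl1) was called higher and none lower.

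Leaving out any single array gave 6 members called in M minus Ctrl, 8 or 9 in T minus Ctrl and 8 in M minus T. With the deposited value table, 4, 5 and 2 members were called in M minus Ctrl, T minus Ctrl and M minus T. Mmp8 and Timp2 lost their calls in all of these comparisons, and Mmp14 in T minus Ctrl and M minus T. Mmp9, Mmp19 and Timp1 lost theirs in M minus T. There Mmp9 differed by 1.01 (adjusted p = 0.66), and Timp2 in T minus Ctrl by -0.38 (adjusted p = 0.67). With its T2 column left out, an alternative chosen after the data were seen, the table gave 6, 8 and 8.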

How the data were processed

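RNA labelled with Cy3 was hybridised to 9 arrays. Spot values were extracted by the authors in Agilent Feature Extraction (version 10.7.3.1, according to the submitters' processing notes). Per the file headers, the deposited intensity of a spot (processed signal) had its background removed, and no scaling was made across arrays. The authors also deposited a value table, in which 4 columns were on a linear intensity scale and 5 on a log2 scale centred near the 75th percentile; its columns were identified by comparison with the scanner files, and the scale of the T2 column is inferred from its values alone.

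Control spots were left out, as were 147 to 299 outlier spots per array, spots of a probe were averaged, and log2 of the signal minus the array's 75th percentile was taken. No spot was saturated. RefSeq (GRCm38.p6, used for names) named 26762 of 55681 probes, and 6488 kept the array's name. A probe counted as well above background on an array where more than a share of 0.5 of its spots did. Probes that did so on all arrays of some group were kept, and the brightest of them represented its gene. limma 3.58.1 in R 4.3.3 (lmFit, eBayes) fitted the 3 groups together, with Benjamini-Hochberg adjustment at 0.05. The SE pools the spread of all 9 arrays. The procedure was tested on simulated data. The number of arrays limits the precision.

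Members and lists were chosen with earlier results of these data known. All members are named, together with every called gene of the family outside them, up to 6 of the largest calls per comparison among partners, up to 4 in each other list, and 3 genes of most similar pattern for Mmp9, Mmp12, Mmp14 and Timp2. The markers named beside the members were chosen after their values were seen.

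Replicate numbers come from the titles. The deviations of same-numbered arrays from their group means correlated at 0.55, 0.12 and 0.38 between T and Ctrl. The values were -0.27, -0.14 and 0.02 between M and T, and -0.27, -0.19 and 0.02 between M and Ctrl. Only between T and Ctrl was every value above 0.1. Arrays of different numbers correlated as well, at 0.19 for T2 with Ctrl3 and 0.35 for M2 with Ctrl1, while T1 with Ctrl3 gave -0.45. All these values use the names of the scanner files, and the deposited value table exchanges M1 and M2. By its names the same-numbered values were 0.32, 0.06 and 0.02 between M and T, and 0.35, 0.04 and 0.02 between M and Ctrl. Which names are right is not known. These values therefore do not show whether the numbers pair any arrays. In all, 23 alternatives were run.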

Additional observations from a re-analysis of the deposited data

Results flagged for a closer look

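The level of Mmp9 in the T2 column of the deposited value table was 3.22 on the log2 scale over the column's 75th percentile. It was flagged as a signal in data outside the comparisons, above the highest Ctrl column of that table (-5.92). The T2 scanner file gave -2.40, and the M arrays gave 0.20 to 0.50. In the same column Mmp8 stood at -2.83 (scanner file -5.46), Timp2 at -0.01 (scanner file -2.72) and Timp1 at -2.25 (scanner file -0.69), whereas Mmp27 and Timp3 lay within 0.1 of theirs. Across all probes the column correlated at 0.947 to 0.982 with each of the 9 scanner files. What the column holds was not tested.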

How the results depend on the processing

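Of the members' values under other settings, 568 kept their direction and their side of the threshold, 17 lost the call, 5 gained it and 1 reversed: Timp1 in T minus Ctrl was -0.23 with the deposited value table (not past the threshold either way). Genes called in M minus Ctrl (4310) numbered 2055 with the deposited table, 2192 in a fit of these groups alone, which is also the value within slide 1, 9476 with array quality weights and 902 with M2 as the lone M array (added after the data were seen, its spread assumed equal to that of the other groups). They ranged from 1871 without M3 to 7967 without Ctrl3, with 1952, 1954 and 2039 without Ctrl1, Ctrl2 and M1. Genes called in T minus Ctrl (8348) numbered 12540 with array weights and 5594 to 9937 without 1 array. Genes called in M minus T (4715) numbered 1440 with the deposited table, 2949 without its T2 column, 7395 without the filter, 8749 with array weights, 2394 with M2 alone, and 2910 to 6214 without 1 array (2958 without T2, 2910 without T3). Members called in T minus Ctrl and M minus T (8 each) fell to 5 and 2 with the deposited table and to 4 and 4 where a probe had to be well above background on all 9 arrays, which drops Mmp9, Mmp12, Mmp14 and Timp3 and leaves 4 in M minus Ctrl. With M2 alone, Mmp8 and Timp1 lost their calls in M minus Ctrl (adjusted p = 0.0505 and 0.093). Where not said otherwise, the cause was not tested.

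The replicate number, by the names of the scanner files, was also used as a block. This gave 4543, 8028 and 4286 genes and 6, 8 and 8 members called in M minus Ctrl, T minus Ctrl and M minus T. No member's call changed. The block was not run with M1 and M2 exchanged. Slide as a random block was not run, since T has a slide to itself. Calls were higher in 52.3% of cases in M minus Ctrl (66.2% with quantile normalization, 74.3% with the array median, 64.4% with the deposited table), 38.9% in T minus Ctrl (52.4% and 65.8% with quantile and median) and 57.5% in M minus T (44.8% with the median). Scaling to the median moved the median of all genes to 0.20 in M minus Ctrl, 0.28 in T minus Ctrl and -0.01 in M minus T. Dim probes limit Mmp12, Mmp13, Mmp14 and Timp3.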
